A study of Mus musculus with 44 samples.

Results

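The liver of B6C3F1 mice was compared between 2-butoxyethanol (2BE) and vehicle at 7 d. The rule took the 5 arrays titled as 2BE liver at 7 d and the 4 titled as vehicle liver at 7 d, 9 of the 44 Affymetrix arrays of the series. B6C3F1 is a hybrid laboratory mouse, and 2BE is a glycol ether solvent that rodents convert to butoxyacetic acid, which bursts their red cells. Per the labels, a piece of the left lateral lobe was taken under ketamine and acepromazine anaesthesia in all groups. The titles give 2BE and vehicle, while the treatment field reads "reduced oxygen" for the former and "control" for the latter. The sources used here give no dose, route, age, sex or hour of collection. The labels do not say that each array is a separate mouse, so p-values measure only the spread between these samples. A further 3 vehicle and 4 2BE liver arrays at 4 h shared the estimate of spread and served for a comparison of the times.

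The liver takes up damaged red cells and haemoglobin through its resident macrophages, the Kupffer cells, and the iron released is stored or exported again. Hepatocytes set iron export through the hormone hepcidin, whose gene is driven by bone morphogenetic protein (BMP) signals that pass through SMAD transcription factors, and by inflammatory signals. The same cells store glucose as glycogen, make and burn fat, and run a circadian clock that times many of these functions.

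Levels are log2(intensity + 1). Differences are 2BE minus vehicle on that scale, with limma's standard error (SE), and folds are on the same scale, which understates changes of dim genes. Values of arrays 1 to 4 (vehicle) and 1 to 5 (2BE) are given in the order of their labels' numbers, which carries no meaning. A gene was said to rise or fall at a Benjamini-Hochberg adjusted p under 0.05 over 18193 genes in limma, and every adjusted p below is of that kind. Of these genes 136 passed, or 0.748%, 92 higher (0.506%) and 44 lower (0.242%). At least 2-fold changes were made by 25 of the higher and 10 of the lower genes. The arms (the 5 2BE and the 4 vehicle arrays) did not overlap for 124 of the 136, and for 970 of all genes (5.33%), 555 upward (3.05%) and 415 downward (2.28%). The median difference of all genes was -0.001. The count of 136 was sensitive to single arrays: it was 36 without vehicle array 2, 46 without vehicle array 3, 75 without vehicle array 4, 58, 76 and 81 without 2BE arrays 4, 2 and 5, and 250 without 2BE array 1. A fit of the 9 arrays alone called 244, of which 112 were among the 136.

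Markers of the labelled tissue were high. The summed intensity of 10 hepatocyte markers, such as albumin and transthyretin, was 211129 to 219806 in vehicle and 214545 to 225560 in 2BE, and 0 of them were below the lower quartile of the probe sets. Correlations between the 9 arrays were 0.991 to 0.998. Vehicle array 1 stood apart in acute phase genes, which the liver raises in inflammation: the mean level of the 25 measured members was 12.19 there and 11.12 to 11.35 in the other vehicle arrays. In 2BE it was 11.43 in array 1 and 11.99 to 12.98 in the others. None of the 25 passed (0 by limma after adjustment, 7 at an unadjusted p under 0.05, against 11.4% of all genes), although the list's median difference was 0.21. 2BE array 1 also lay near vehicle in clock genes, as given with those genes. Over all genes 2BE array 5 deviated most from the mean of its arm. Its root mean square deviation was 0.179 on the log2 scale, against 0.104 to 0.146 in the other arrays.

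**Figure D1:**
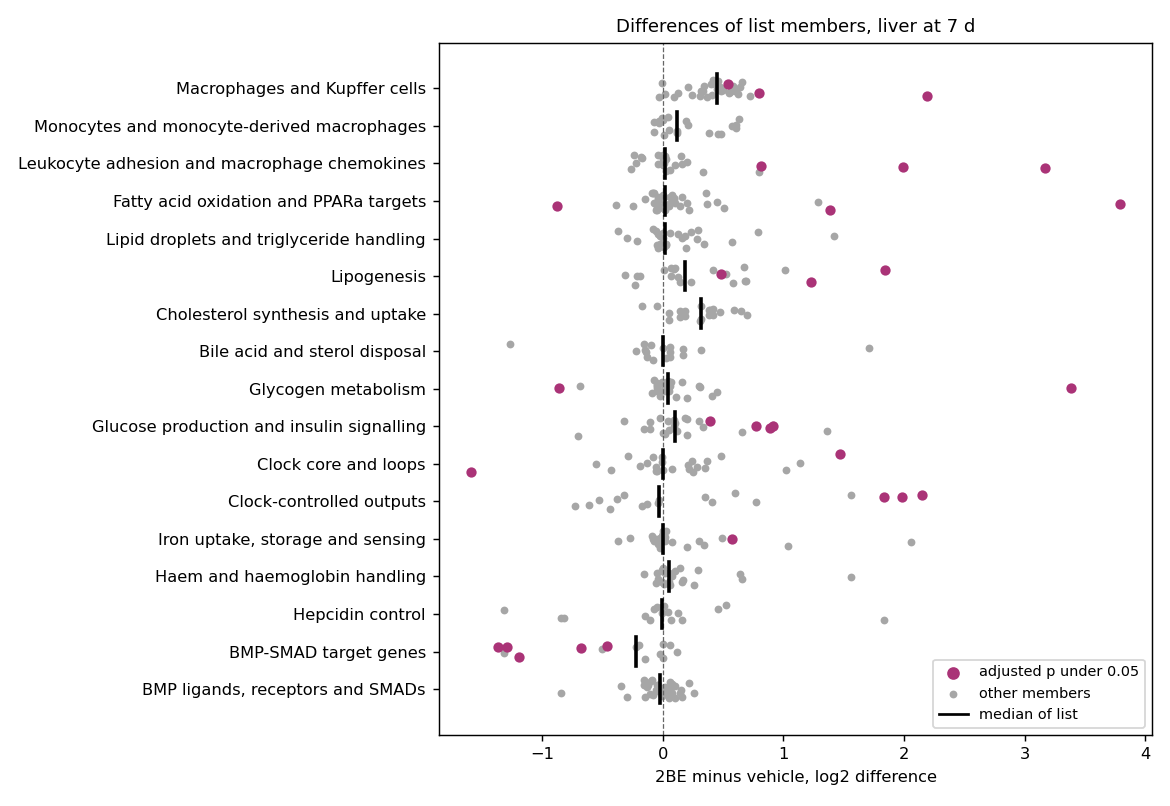
Difference of each measured list member, 2BE minus vehicle on the log2 scale (x axis), by list (y axis), in the liver at 7 d. Coloured points passed at an adjusted p under 0.05, grey points did not, and the black bar is the list's median. The macrophage list has its median at 0.45 and the BMP-SMAD target list at -0.22.

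Macrophage genes were higher with 2BE. Of 33 measured genes of macrophages and Kupffer cells 3 rose and 0 fell, against 0.748% of all genes called, and the list's median difference was 0.45 against -0.001 for all genes. Differences were above 0 for 31 of the 33, and for 19 of them all 2BE arrays lay above all vehicle arrays, against 3.05% of all genes in that direction. The 3 that rose were Marco, Cd68 and Lyz2. This list and the others were chosen with earlier results of these data known, so their shares are not independent support. In bulk tissue, more cells of a type and more RNA per cell cannot be told apart.

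Marco encodes a scavenger receptor with which macrophages bind bacteria and particles. Its level (probe set 1449498_at) was 5.73, 5.76, 5.94 and 5.82 in vehicle and 8.04, 6.94, 7.22, 8.08 and 9.71 in 2BE. The arms did not overlap, and 2BE array 5 was the highest by far. It rose 4.55-fold (difference 2.19 ± 0.43 SE, 5 2BE and 4 vehicle arrays, adjusted p = 0.0236), and its other probe set was at 0.93 ± 0.29 and did not pass. Cd68, a lysosomal glycoprotein of macrophages, was at 6.68, 6.72, 6.41 and 6.40 in vehicle and at 7.54, 7.02, 7.16, 7.45 and 7.60 in 2BE, a rise of 0.80 ± 0.17 (adjusted p = 0.0450). Lyz2, the lysozyme of macrophages and neutrophils, was at 8.58, 9.02, 8.74 and 8.75 in vehicle and at 9.45, 9.12, 9.28, 9.36 and 9.37 in 2BE, a rise of 0.54 ± 0.10 (adjusted p = 0.0213). For both genes the arms stood apart by a narrow margin.

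Members that did not pass lay mostly on the same side. The C1q genes, whose products start the classical complement pathway and come largely from macrophages, were at 0.43 ± 0.15 (C1qa), 0.56 ± 0.16 (C1qb) and 0.60 ± 0.18 (C1qc). Cd163, the receptor for haptoglobin-bound haemoglobin, was at 0.66 ± 0.19 (adjusted p = 0.122), with 7.74 to 8.20 in vehicle and 8.45 to 9.03 in 2BE. Cd5l, a protein that tissue macrophages secrete, was at 0.72 ± 0.22 (adjusted p = 0.159), with levels of 10.47, 10.44, 10.08 and 10.15 in vehicle and 11.10, 10.70, 10.83, 11.26 and 11.13 in 2BE. Adgre1, which encodes a classical surface antigen of mouse macrophages, was at 0.48 ± 0.12 (adjusted p = 0.0888), and the Fc receptor gene Fcgr3 at 0.64 ± 0.16 (adjusted p = 0.0862). In each of these 7 genes every 2BE array was above every vehicle array. In contrast, the Kupffer cell lectin gene Clec4f was at 0.21 ± 0.14 with overlapping arms, Siglec1, a sialic acid receptor, at -0.01 ± 0.08, and the mannose receptor gene Mrc1 at 0.02 ± 0.11.

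Among 20 measured genes of monocytes and monocyte-derived macrophages 0 passed in limma after adjustment, while 8 had an unadjusted p under 0.05, all higher, against 6.09% of all genes higher and 5.26% lower at that threshold, and the median difference was 0.12. The monocyte chemokine receptor gene Ccr2 was at 0.12 ± 0.07, and Cd44, a hyaluronan receptor, at 0.63 ± 0.21 (adjusted p = 0.210). Of 25 adhesion and chemokine genes 3 rose, Vcam1, Icam1 and Cxcl1, against 0.506% of all genes, and the list's median was 0.02. Vcam1 and Icam1 encode surface proteins of activated endothelium and other cells that hold leukocytes. Vcam1 (probe set 1448162_at) was at 6.26, 6.22, 6.01 and 6.44 in vehicle and at 7.94, 8.16, 7.63, 8.47 and 8.90 in 2BE. The arms were more than a unit apart, and it rose 3.96-fold (1.99 ± 0.28, adjusted p = 0.00500). Its other probe sets were at 0.88 ± 0.21 and 0.09 ± 0.08, and neither passed. Icam1 was at 6.99, 6.62, 6.48 and 6.76 in vehicle and at 7.68, 7.48, 7.45, 7.59 and 7.39 in 2BE, a rise of 0.81 ± 0.11 (adjusted p = 0.00452) with separate arms.

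Cxcl1, a chemokine that attracts neutrophils, was at 9.51, 8.45, 8.26 and 12.14 in vehicle and at 11.63, 12.79, 12.99, 13.14 and 13.27 in 2BE. It rose 9.01-fold (3.17 ± 0.68, adjusted p = 0.0397), yet vehicle array 4 lay above 2BE array 1, so the arms overlapped. The chemokine genes Ccl2 and Ccl7, which attract monocytes, were at -0.04 ± 0.07 and -0.04 ± 0.08. The summed intensity of 11 neutrophil markers was 406 to 1939 in vehicle (median 476) and 513 to 8138 in 2BE (median 796). Limma called 0 of the 11 (0 also at an unadjusted p under 0.05), and none lay under the lower quartile. The markers' mean level was 5.15 to 5.68 in vehicle and 5.34 to 5.66 in 2BE arrays 1 to 4. Only 2BE array 5 lay above these ranges. The part of neutrophil content in the Lyz2 and Cxcl1 results was not tested. Endothelial markers, 16 of them and all but Cd34 above the lower quartile, summed to 5113 to 5737 in vehicle and 4638 to 5039 in 2BE. Their mean level overlapped, at 7.50 to 7.66 in vehicle and 7.41 to 7.55 in 2BE. Of the 16, 0 passed in limma after adjustment, and 2 were lower at an unadjusted p under 0.05, against 5.26% of all genes. The part of endothelial content in the Vcam1 and Icam1 results was not tested.

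The count of macrophage, monocyte and adhesion genes depended on the estimate of spread. With the 9 arrays fitted alone, 18 of the 78 passed, all higher, where 244 of all 18193 genes passed. Among the 18 were Cd5l (adjusted p = 0.0233), Adgre1 (adjusted p = 0.0321), Fcgr3 (adjusted p = 0.0155) and Cd163 (adjusted p = 0.0348), while Cxcl1 did not pass (adjusted p = 0.0506). With arrays left out singly, Vcam1 and Icam1 passed in all 9 fits. With the probe set of highest mean in the 7 d liver standing for each gene, Vcam1 was at 0.88 and did not pass (adjusted p = 0.0661). Marco lost its call without any of the vehicle arrays or 2BE array 4 (adjusted p = 0.0624 to 0.0812), Lyz2 without vehicle arrays 1, 3 and 4 and 2BE arrays 4 and 5 (0.0532 to 0.0855), Cd68 without any array but 2BE arrays 2 and 3 (0.0639 to 0.168), and Cxcl1 without any but vehicle array 4 and 2BE array 1 (0.0752 to 0.170).

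**Figure D2:**
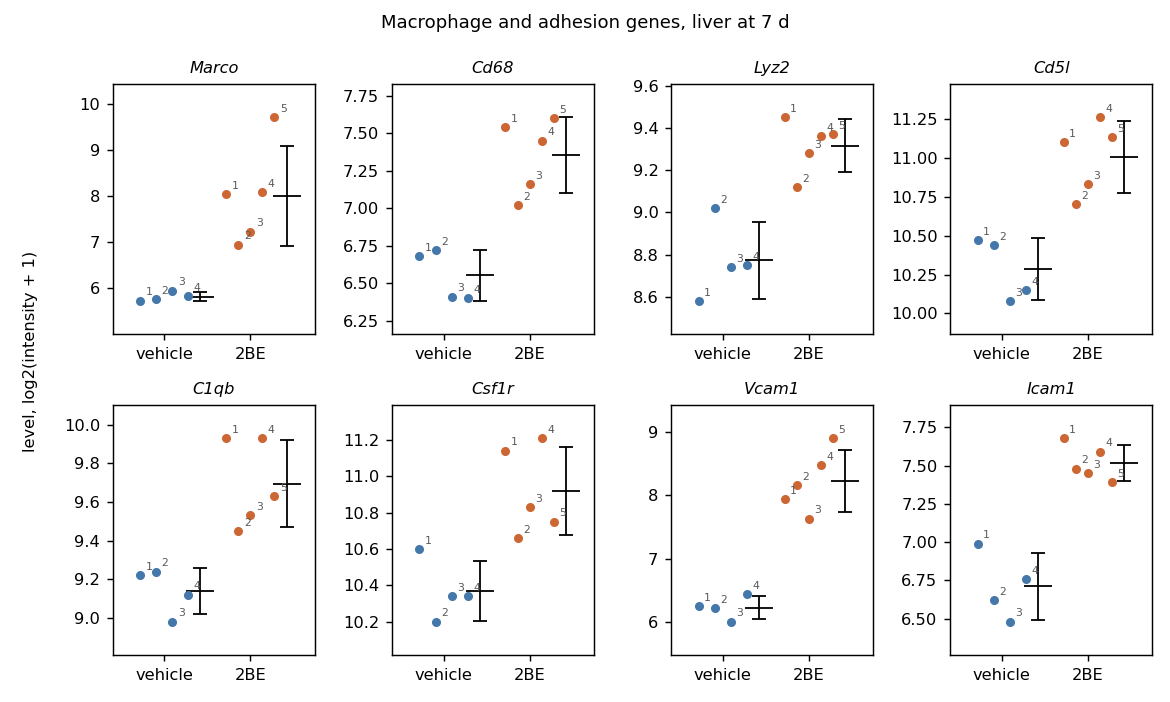
Level, log2(intensity + 1), of 8 macrophage and adhesion genes in each array, blue for the 4 vehicle and orange for the 5 2BE arrays of the 7 d liver, with replicate numbers; black bars show the mean and SD of each arm. The 2BE arrays lie above the vehicle arrays in all 8 panels, and Marco spreads most, from 6.94 to 9.71 in 2BE. Cd5l, C1qb and Csf1r are shown although they did not pass.

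Lipid genes that passed belonged to fatty acid oxidation and lipogenesis, and 0 passed in the lists of lipid droplets, cholesterol and bile acids. Of 41 measured genes of fatty acid oxidation and PPARa targets (PPARa is the nuclear receptor that turns on fat burning) 2 rose and 1 fell, and the median difference was 0.02. Of all genes 0.506% rose and 0.242% fell. Cyp4a14, a P450 enzyme that hydroxylates fatty acids at their far end, had the largest rise of all named genes. Its level (probe set 1423257_at) was 9.08, 9.44, 9.72 and 5.87 in vehicle and 12.47, 12.14, 12.02, 12.25 and 12.72 in 2BE. Vehicle array 4 lay more than 3 units below the other vehicle arrays, and all 2BE arrays lay close together above them. It rose 13.9-fold (3.79 ± 0.72, adjusted p = 0.0213), and without vehicle array 4 the difference was 2.91. Ppargc1a, a coactivator of oxidative metabolism and glucose production, was at 9.18, 8.59, 8.79 and 8.81 in vehicle and at 9.82, 11.03, 9.77, 10.22 and 10.33 in 2BE. Its arms were apart, it rose 2.62-fold (1.39 ± 0.25, adjusted p = 0.0142), and its 4 other probe sets were at 1.25 to 1.46.

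Fgf21, a hormone gene of the liver that PPARa induces in fasting, moved the other way. It was at 7.37, 6.82, 7.22 and 6.96 in vehicle and at 6.37, 6.34, 6.14, 6.17 and 6.04 in 2BE, with no overlap. It fell 1.84-fold (-0.88 ± 0.17, adjusted p = 0.0212). Other genes known as PPARa targets did not pass: Cpt1a, which admits fatty acids to mitochondria, was at 0.05 ± 0.12, Acot1, an acyl-CoA thioesterase, at 0.45 ± 0.67, Ehhadh, a peroxisomal oxidation enzyme, at 0.51 ± 0.39 with arms apart, and Pdk4, a kinase that restrains pyruvate oxidation, at -0.39 ± 0.30. Cyp4a31, a close relative of Cyp4a14, was at 1.29 ± 0.36 (adjusted p = 0.122) with separate arms. Probe sets of such near-identical paralogs may share signal.

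Of 22 lipogenesis genes 3 rose, against 0.506% of all genes, 0 fell, and the median was 0.18. Thrsp, a nuclear protein that promotes fat synthesis, was at 12.45, 10.89, 11.60 and 11.93 in vehicle and at 13.35, 13.88, 13.56, 13.73 and 13.28 in 2BE. The 2BE arrays were all above the vehicle arrays, which were the more scattered, and it rose 3.58-fold (1.84 ± 0.37, adjusted p = 0.0291). Elovl6, an elongase of saturated fatty acids, rose 2.34-fold (1.23 ± 0.23, adjusted p = 0.0199) from 8.82 to 9.73 in vehicle to 9.93 to 11.05 in 2BE. Scd2, a desaturase, rose by 0.48 ± 0.09 (adjusted p = 0.0228) from a low level, a mean of 5.35 in vehicle, and its other probe sets were at 0.14 and 0.11. Fatty acid synthase (Fasn) was at 1.01 ± 0.28 (adjusted p = 0.108) and acetyl-CoA carboxylase (Acaca) at 0.67 ± 0.16 (adjusted p = 0.0751), both with overlapping arms. The lipogenic transcription factor gene Srebf1 was at 0.58 ± 0.19 (adjusted p = 0.194), and Scd1 at 0.23 ± 0.21.

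Lipid droplet and triglyceride genes had 0 of 28 called in limma after adjustment and a median of 0.02. At an unadjusted p under 0.05 there were 6, against 11.4% of all genes, and 4 of the 28 had arms apart, against 5.33%. The droplet coat gene Plin4 was at 1.42 ± 0.40 (adjusted p = 0.121), with 5.91 to 6.08 in vehicle and 6.30 to 8.53 in 2BE, while Plin2, a coat protein whose level follows stored fat, was at -0.37 ± 0.15. Cholesterol synthesis and uptake had 0 of 20 called in limma, 7 at an unadjusted p under 0.05, against 11.4% of all genes, and a median of 0.32. For 5 of its genes every 2BE array was above every vehicle array, against 3.05% of all genes. Among them were squalene epoxidase (Sqle, 0.70 ± 0.22, adjusted p = 0.167) and lanosterol synthase (Lss, 0.65 ± 0.19, adjusted p = 0.138). Of 17 bile acid genes 0 passed in limma, and 2 had an unadjusted p under 0.05, against 11.4% of all genes. Cyp7a1, the rate-limiting enzyme of bile acid synthesis, was at 1.71 ± 0.48 (adjusted p = 0.121), with 9.78, 8.68, 8.63 and 8.65 in vehicle and 9.17, 10.73, 10.65, 11.55 and 11.13 in 2BE. Nr0b2, a receptor that represses Cyp7a1, was at -1.27 ± 0.35 (adjusted p = 0.117), with 10.11 to 10.63 in vehicle and 8.42 to 9.65 in 2BE. Cyp7a1 overlapped through 2BE array 1 and vehicle array 1, and Nr0b2 did not overlap.

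Of the 128 lipid genes 6 passed in all, and 11 did when the 9 arrays were fitted alone. Of all 18193 genes 136 and 244 passed in these fits. With arrays left out singly, calls were lost for Cyp4a14 without vehicle array 2 and 2BE arrays 4 and 5 (adjusted p = 0.0511 to 0.0558), for Ppargc1a without vehicle arrays 2 and 3 (0.0583 to 0.0617), for Elovl6 without these and 2BE array 4 (0.0583 to 0.0789), for Fgf21 without vehicle arrays 1 and 3 and 2BE arrays 4 and 5 (0.0558 to 0.0923), for Thrsp without any but vehicle array 1 and 2BE array 1 (0.0529 to 0.119), and for Scd2 without any but 2BE arrays 1 and 3 (up to 0.0855).

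Glycogen is built by glycogen synthase, which is switched on when a protein phosphatase removes its phosphates. Targeting subunits of the Ppp1r3 family bring that phosphatase to glycogen, and 2 of them moved in opposite directions while the other glycogen genes did not pass. Ppp1r3g (probe set 1428923_at) was at 5.84, 5.14, 5.64 and 5.89 in vehicle and at 8.34, 10.19, 8.38, 9.0 and 9.10 in 2BE. The arms were over 2 units apart. It rose 10.4-fold (3.38 ± 0.34, adjusted p = 4.2e-04), and it passed with any of the 9 arrays left out (adjusted p at most 0.00436). Ppp1r3b (probe set 1436590_at), the main targeting subunit of the liver, was at 11.24, 10.51, 11.48 and 10.91 in vehicle and at 10.12, 10.29, 10.18, 10.21 and 10.06 in 2BE. The 2BE arrays lay within a narrow band below the vehicle arrays, and it fell 1.82-fold (-0.86 ± 0.16, adjusted p = 0.0151).

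The remaining targeting subunit genes did not pass. Ppp1r3c was at -0.69 ± 0.32 (adjusted p = 0.441), with 10.46 to 10.94 in vehicle and 9.80 to 10.22 in 2BE, and it passed when the 9 arrays were fitted alone (adjusted p = 0.0217). Ppp1r3d, Ppp1r3e and Ppp1r3f were at 0.04 ± 0.08, -0.04 ± 0.11 and 0.02 ± 0.07. Gys2, the glycogen synthase of the liver, was at 0.45 ± 0.16 (adjusted p = 0.234) with separate arms, and liver glycogen phosphorylase (Pygl), which breaks glycogen down, was at 0.04 ± 0.09. Over the 31 measured glycogen genes the median was 0.04. Their arms did not overlap for 4 upward and 2 downward, against 3.05% and 2.28% of all genes. At an unadjusted p under 0.05, 5 were higher and 1 lower, against 6.09% and 5.26%.

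Of 27 genes of glucose production and insulin signalling 4 rose, against 0.506% of all genes, and 0 fell, with a median of 0.10. Pck1, the enzyme that commits carbon to new glucose, was at 12.39, 12.22, 12.11 and 12.80 in vehicle and at 12.72, 13.56, 13.32, 13.45 and 13.41 in 2BE. Only 2BE array 1 reached into the vehicle range. It rose 1.88-fold (0.91 ± 0.16, adjusted p = 0.0147), and its other probe sets were at 0.45 ± 0.08 and 0.03 ± 0.07. Tat, an enzyme of tyrosine breakdown that glucocorticoids induce, rose by 0.89 ± 0.16 (adjusted p = 0.0176), from 12.58 to 13.11 in vehicle to 13.39 to 14.30 in 2BE. Irs2, an adapter of the insulin receptor, was at 7.10, 6.94, 6.85 and 7.14 in vehicle and at 7.67, 7.59, 7.71, 8.02 and 7.91 in 2BE. Its arms were apart, and it rose by 0.77 ± 0.14 (adjusted p = 0.0140). Klf15, a transcription factor of amino acid breakdown and glucose production, rose by 0.39 ± 0.08 (adjusted p = 0.0453) with overlapping arms. Igfbp1, a binding protein of insulin-like growth factors that insulin represses, was at 1.36 ± 0.34 (adjusted p = 0.0843) with arms apart, and glucose-6-phosphatase (G6pc) was at 0.66 ± 0.26 (adjusted p = 0.322).

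With arrays left out singly, calls were lost for Ppp1r3b without vehicle array 1 (adjusted p = 0.0518) and vehicle array 3 (0.0610), for Pck1 without vehicle arrays 2 and 3 (0.0636 and 0.0758), for Irs2 without the same arrays (0.0568 and 0.0653), for Tat without vehicle array 2 (0.0714), and for Klf15 without any but vehicle array 1 and 2BE array 1 (0.0645 to 0.160).

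**Figure D3:**
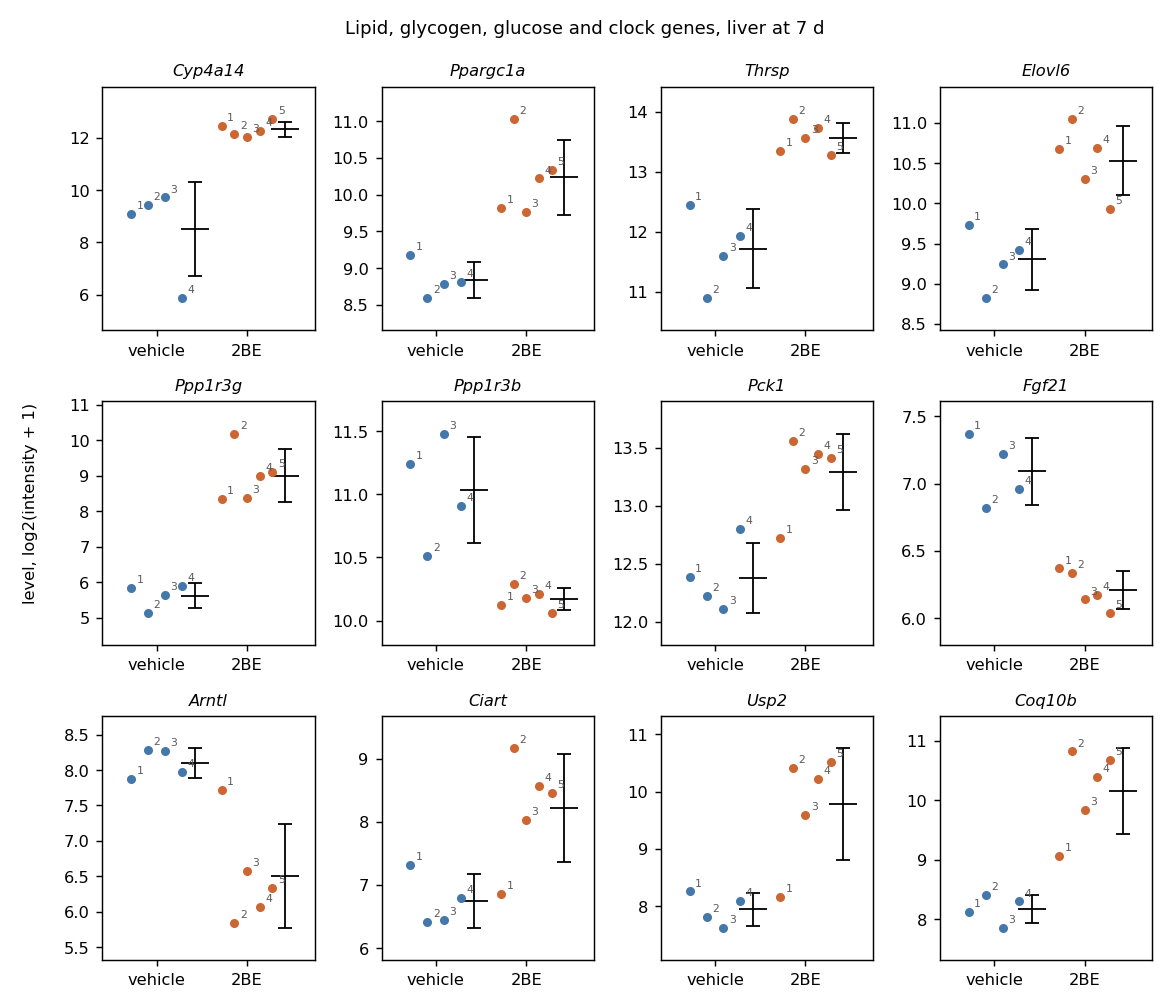
Level, log2(intensity + 1), of 12 lipid, glycogen, glucose and clock genes in each of the 4 vehicle (blue) and 5 2BE (orange) arrays of the 7 d liver, with replicate numbers and the mean and SD of each arm in black. Cyp4a14 is low in vehicle array 4, at 5.87, and 2BE array 1 lies at or near the vehicle arrays in Pck1, Arntl, Ciart and Usp2.

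The clock runs on a loop in which CLOCK and BMAL1 (the product of Arntl) bind E-boxes, DNA elements with the letters CACGTG, and turn on genes whose products repress them, while the REV-ERB and ROR receptors act on Arntl. Of 25 measured core and loop genes 1 rose and 1 fell, against 0.506% and 0.242% of all genes, and the median was 0.00. Arntl (probe set 1425099_a_at) was at 7.87, 8.28, 8.27 and 7.97 in vehicle and at 7.72, 5.84, 6.57, 6.07 and 6.33 in 2BE. 2BE array 1 lay just under the vehicle arrays and the other 4 2BE arrays more than a unit lower. It fell 3.02-fold (-1.59 ± 0.31, adjusted p = 0.0243), whereas its other probe set was at 0.02 ± 0.07. Ciart, which encodes a repressor of CLOCK and BMAL1, was at 7.32, 6.42, 6.44 and 6.80 in vehicle and at 6.86, 9.16, 8.03, 8.56 and 8.45 in 2BE. It rose 2.77-fold (1.47 ± 0.32, adjusted p = 0.0453), with 2BE array 1 inside the vehicle range.

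The core partner Clock was at -0.55 ± 0.13 (adjusted p = 0.0680), with its other probe sets at -0.51 to -0.66, and the repressors Per3, Per1 and Per2 were at 1.02 ± 0.23 (adjusted p = 0.0532), 0.37 ± 0.22 and 0.28 ± 0.08. Dbp, a clock-driven transcription factor, was at 1.14 ± 0.54 (adjusted p = 0.447), with 9.14 to 10.97 in vehicle and 10.47 to 11.87 in 2BE, and Nr1d1, which encodes REV-ERB alpha, at -0.43 ± 0.22. Their arms overlapped in all 6 genes named here. Of 18 clock-controlled outputs 3 rose, against 0.506% of all genes, and 0 fell, with a median of -0.03. Coq10b, a coenzyme Q binding protein gene (probe set 1460510_a_at), was at 8.13, 8.41, 7.86 and 8.30 in vehicle and at 9.07, 10.82, 9.83, 10.39 and 10.67 in 2BE. Its arms were apart, and it rose 3.94-fold (1.98 ± 0.26, adjusted p = 0.00359). Usp2, a deubiquitinase whose level follows the clock, was at 8.26, 7.81, 7.63 and 8.09 in vehicle and at 8.17, 10.41, 9.59, 10.22 and 10.52 in 2BE, a 3.57-fold rise (1.83 ± 0.37, adjusted p = 0.0291). Noct (nocturnin) rose 4.43-fold (2.15 ± 0.44, adjusted p = 0.0313), with 5.99 to 7.74 in vehicle and 7.35 to 10.37 in 2BE. In Usp2 and Noct only 2BE array 1 reached into the vehicle range.

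The promoters of Ciart and Coq10b are shown because both genes rose and both hold the E-box letters. They are the 150 bases before the annotated start in RefSeq on GRCm38.p6, with each CACGTG in capitals, at chr3:95882229-95882378 on the minus strand and at chr1:55052620-55052769 on the plus strand.
Ciart: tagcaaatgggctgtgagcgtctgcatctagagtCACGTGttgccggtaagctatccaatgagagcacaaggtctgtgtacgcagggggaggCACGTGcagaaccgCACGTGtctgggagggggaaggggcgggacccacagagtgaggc
Coq10b: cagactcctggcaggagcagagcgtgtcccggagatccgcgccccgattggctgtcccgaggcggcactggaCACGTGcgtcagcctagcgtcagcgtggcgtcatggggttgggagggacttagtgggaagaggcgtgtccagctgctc
Ciart holds the letters 3 times, beginning at -116, -58 and -44 from the start, and Coq10b once, at -78. Over windows of 300 bases, 250 before and 50 after the start, CACGTG occurred in 7.15% of 32851 promoters. It occurred in 5 of 22 core and loop genes whose windows were searched and in 3 of 15 such outputs. The rest of the 25 and 18 measured genes were not searched. The share counts windows, whereas a gene counts with a match in any of its windows, 31 for the 22 genes and 22 for the 15. Of the searched genes with the letters only Ciart and Coq10b passed. Per1 and Tef were at 0.37 and 0.48, and Cry1, Bhlhe41, Lonrf3 and Hsph1 at -0.29, -0.01, -0.53 and -0.44. The letters read the same on both strands. A match describes the sequence and does not show a bound site.

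The clock result depended on single arrays. Of the 43 clock genes 5 passed with all arrays. The count was 1 without vehicle array 2 or 4 or without 2BE array 2, 4 or 5. It was 2 without vehicle array 3, 4 without 2BE array 3 and 5 without vehicle array 1. Without 2BE array 1, 12 passed, 8 higher and 4 lower. Of all 18193 genes 250 passed without it and 136 with it. Without that array Arntl was at -1.89 (adjusted p = 9.3e-04), Ciart at 1.80 (adjusted p = 8.0e-04), Per3 at 1.18 (adjusted p = 0.0142) and Clock at -0.67 (adjusted p = 0.00601). In Arntl and Ciart it was the 2BE array nearest to vehicle, so leaving it out had to widen these differences. The smaller adjusted p-values of that fit are therefore no further support. The sources used here do not give the hour at which each liver was taken, and its part in these values was not tested. Coq10b passed with any array left out. Calls were lost for Arntl without vehicle arrays 2, 3 and 4 and 2BE arrays 2, 4 and 5 (adjusted p = 0.0580 to 0.106), for Ciart without any but vehicle array 1 and 2BE array 1 (0.0648 to 0.171), for Usp2 without any but 2BE arrays 1 and 3 (0.0541 to 0.130) and for Noct without vehicle arrays 1, 2 and 4 and 2BE arrays 2, 4 and 5 (0.0552 to 0.128). With the 9 arrays fitted alone Ciart, Usp2 and Noct did not pass (0.0948, 0.0568 and 0.0766). In that fit 3 of the 43 clock genes did, against 244 of all 18193 genes.

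Of 27 genes of iron uptake, storage and sensing 1 rose and 0 fell, against 0.748% of all genes called, and the median was 0.00. At an unadjusted p under 0.05, 5 of them were higher and 2 lower, where 11.4% of all genes passed in either direction. Slc25a37, which encodes mitoferrin, an importer of iron into mitochondria that is abundant in erythroid cells, was at 8.28, 8.03, 8.12 and 8.04 in vehicle and at 8.69, 8.71, 8.83, 8.82 and 8.41 in 2BE. The arms were apart, with 2BE array 5 nearest to vehicle, and it rose 1.49-fold (0.57 ± 0.10, adjusted p = 0.0151). Its call was lost without vehicle arrays 2, 3 and 4 and 2BE array 4 (adjusted p up to 0.0640). The transferrin receptor gene Tfrc was at 0.02 ± 0.20, the ferritin heavy chain gene Fth1 at 0.01 ± 0.05, and the iron exporter gene Slc40a1 (ferroportin) at -0.37 ± 0.17 (adjusted p = 0.434). Ncoa4, the receptor that delivers ferritin for breakdown, was at 0.30 ± 0.07 (adjusted p = 0.0762), with every 2BE array above every vehicle array.

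Of 23 haem and haemoglobin genes 0 passed in limma after adjustment, 7 had an unadjusted p under 0.05, against 11.4% of all genes, and the median was 0.05. Hmox1, the haem-degrading oxygenase, was at 7.66, 7.32, 7.27 and 7.54 in vehicle and at 8.33, 8.28, 7.83, 8.17 and 7.83 in 2BE. Every 2BE array was above every vehicle array, at a difference of 0.64 ± 0.19 (adjusted p = 0.130). In the fit of the 9 arrays alone it passed (adjusted p = 0.0333), as did 5 of the 66 iron and haem genes with it included. Among the 5 were Cd163 and Hjv, which count in the macrophage and BMP groups as well. Of all 18193 genes 244 passed in that fit. Plasma scavengers of haemoglobin and haem, haptoglobin (Hp) and haemopexin (Hpx), were at 0.10 ± 0.10 and 0.06 ± 0.09. Alas1, the rate-limiting enzyme of hepatic haem synthesis and also a clock output, was at 1.56 ± 0.44 (adjusted p = 0.126), with 10.49, 10.05, 11.02 and 9.56 in vehicle and 10.28, 12.95, 11.53, 11.65 and 12.75 in 2BE. Again only 2BE array 1 reached into the vehicle range.

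Erythroid genes were measured beside these because blood and blood-forming cells in the tissue carry them. Of 22, 3 rose, against 0.506% of all genes: Hbb-b2, an adult beta-globin (1.66 ± 0.34, adjusted p = 0.0303), Slc4a1, the anion exchanger of red cells (0.56 ± 0.12, adjusted p = 0.0453), and Car2, a carbonic anhydrase (0.54 ± 0.07, adjusted p = 0.00359). The summed intensity of the 22 was 2816 to 3374 in vehicle and 3361 to 4239 in 2BE, with 4 members below the lower quartile of the probe sets (Hba-a1, Rhag, Kel and Hemgn). Its part in the Slc25a37 result was not tested. Alas2, the haem synthesis enzyme of erythroid cells, was at 0.27 ± 0.17 (adjusted p = 0.625). Globin copies are nearly identical, and the other Hbb-b2 probe set was at 0.19 ± 0.08, so the size of the Hbb-b2 rise is uncertain. Car2 passed with any array left out, while calls were lost for Hbb-b2 without any but 2BE arrays 1 and 5 (adjusted p = 0.0623 to 0.100) and for Slc4a1 without any but 2BE array 5 (0.0549 to 0.170).

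BMP target genes were lower with 2BE. Of 15 measured BMP-SMAD targets 5 fell and 0 rose, against 0.242% of all genes called lower, and the median was -0.22. This list too was chosen with earlier results of these data known. Those that fell were Id1, Id2 and Id3, which encode inhibitors of helix-loop-helix transcription factors, Smad7, an inhibitor of the pathway that the pathway itself induces, and Atoh8, a helix-loop-helix factor. Id1 (probe set 1425895_a_at) was at 8.75, 8.67, 7.98 and 8.65 in vehicle and at 7.17, 7.33, 6.98, 6.80 and 7.44 in 2BE. Vehicle array 3 was the lowest vehicle array and still above every 2BE array, and Id1 fell 2.58-fold (-1.37 ± 0.24, adjusted p = 0.0131). Smad7 was at 8.04, 8.02, 7.62 and 8.05 in vehicle and at 7.36, 7.02, 7.22, 7.30 and 7.35 in 2BE, a fall of 1.60-fold (-0.68 ± 0.13, adjusted p = 0.0213), and its other probe set was at -1.04 ± 0.17. Here too the arms were apart and vehicle array 3 was nearest to 2BE.

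Id2 was at 11.74, 12.08, 11.14 and 11.80 in vehicle and at 10.46, 9.20, 10.79, 11.10 and 10.46 in 2BE, a fall of 2.44-fold (-1.29 ± 0.29, adjusted p = 0.0473). Id3 was at 9.69, 9.74, 8.51 and 9.45 in vehicle and at 7.87, 7.92, 8.33, 8.56 and 8.12 in 2BE, a fall of 2.28-fold (-1.19 ± 0.23, adjusted p = 0.0213). The Id2 arms stood just apart, and those of Id3 overlapped through vehicle array 3. Atoh8 fell by 0.46 on the log2 scale (SE 0.09, adjusted p = 0.0291), from 8.09 to 8.19 in vehicle to 7.50 to 7.83 in 2BE. Smad6, another inhibitor of the pathway, was at -0.50 ± 0.18 (adjusted p = 0.274). Id4, at -0.20 ± 0.12, and Bambi, a decoy receptor, at -0.22 ± 0.10, did not pass.

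Hamp, the hepcidin gene, is the target through which the pathway controls iron. It was at 14.24, 13.63, 13.77 and 13.95 in vehicle and at 11.67, 13.43, 12.73, 13.44 and 11.62 in 2BE. 2BE arrays 1 and 5 were more than 1 unit below the other 2BE arrays, and arrays 2 and 4 were just under vehicle. The difference was -1.32 ± 0.31, a 2.50-fold lower level that did not pass (adjusted p = 0.0645). The adjusted p was 0.131 with the 9 arrays fitted alone, and Hamp passed with array weights (-1.20, adjusted p = 0.0239). Of the 9 fits with 1 array left out it passed in 2, without 2BE array 2 (-1.53, adjusted p = 0.0341) and without 2BE array 4 (-1.53, adjusted p = 0.0420). These were the 2BE arrays nearest to vehicle, so leaving out either widened the difference. In the other fits of that kind Hamp did not pass (adjusted p up to 0.168). Its other probe set was at -1.28 ± 0.31. Hamp2, the neighbouring copy, was at -0.82 ± 0.40 (adjusted p = 0.461) with overlapping arms. The Hamp probe set is of the kind marked as sharing probes with similar transcripts (1419197_x_at), so the copies may share signal. Acute phase signals also act on Hamp: Socs3, a feedback inhibitor of cytokine signalling, was at 1.83 ± 0.48 (adjusted p = 0.0973), and the mean level of acute phase genes was highest in vehicle array 1, the array with the highest Hamp, and in 2BE array 5, the array with the lowest. Its part in the Hamp values was not tested.

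The promoters of Hamp and Hamp2 are shown because the copies resemble each other and the GC-rich letters GGCGCC, known from BMP response elements, occur in the window of Hamp alone. They are the 150 bases before the annotated start in RefSeq on GRCm38.p6, with GGCGCC in capitals, at chr7:30944030-30944179 and chr7:30924182-30924331, both on the minus strand.
Hamp: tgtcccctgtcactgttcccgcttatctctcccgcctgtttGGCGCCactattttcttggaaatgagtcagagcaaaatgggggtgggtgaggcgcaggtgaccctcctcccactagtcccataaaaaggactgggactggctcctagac
Hamp2: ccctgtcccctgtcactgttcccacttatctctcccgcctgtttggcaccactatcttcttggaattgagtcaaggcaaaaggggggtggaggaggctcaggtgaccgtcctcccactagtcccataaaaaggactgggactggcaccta
GGCGCC began at -109 in Hamp and was not in the window of Hamp2. It occurred in 11.9% of the 32851 windows of 300 bases, and in 4 of the 8 BMP target genes whose windows were searched: Hamp, Id2, Id4 and Grem1. The rest of the 15 measured targets were not searched, so nothing is known here of the letters in their promoters. The share and the count are therefore not on the same set of windows. The letters read the same on both strands, and a match or its absence says nothing of what binds there.

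Of 37 measured BMP ligands, receptors and SMADs 0 passed in limma after adjustment, and the median was -0.02. An unadjusted p under 0.05 was found for 6, against 11.4% of all genes. Hjv, which encodes haemojuvelin, the BMP co-receptor of hepatocytes, was at 10.04, 10.16, 10.21 and 9.85 in vehicle and at 9.59, 8.94, 9.46, 9.41 and 8.73 in 2BE. All 2BE arrays were below all vehicle arrays, at a difference of -0.84 ± 0.20 (adjusted p = 0.0644), and its other probe set was at -0.94 ± 0.22. Hjv passed when the 9 arrays were fitted alone (adjusted p = 0.0347). The ligand gene Bmp6, through which liver endothelium reports iron stores, was at 0.16 ± 0.09 (adjusted p = 0.548), and Bmp2, its partner ligand, at -0.11 ± 0.16. The receptor genes Acvr1 and Bmpr1a were at -0.35 ± 0.14 and -0.12 ± 0.06, and Smad1 and Smad4, which carry the signal, at 0.10 ± 0.09 and -0.05 ± 0.05. Tmprss6, a protease that cuts haemojuvelin, was at -0.15 ± 0.07, and the iron sensor genes Tfr2 and Hfe were each at -0.01 ± 0.07.

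With arrays left out singly, calls were lost for Id1 without vehicle array 2 (adjusted p = 0.0563), for Smad7 without vehicle arrays 1, 2 and 4 and 2BE arrays 2 and 4 (0.0519 to 0.0772), for Id3 without these vehicle arrays and 2BE arrays 2 and 5 (0.0524 to 0.0846), for Id2 without any but 2BE arrays 2, 3 and 4 (0.0539 to 0.164), and for Atoh8 without any but 2BE arrays 1 and 3 (0.0645 to 0.0924). Fitted with the 9 arrays alone, Id2 did not pass (0.0902).

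**Figure D4:**
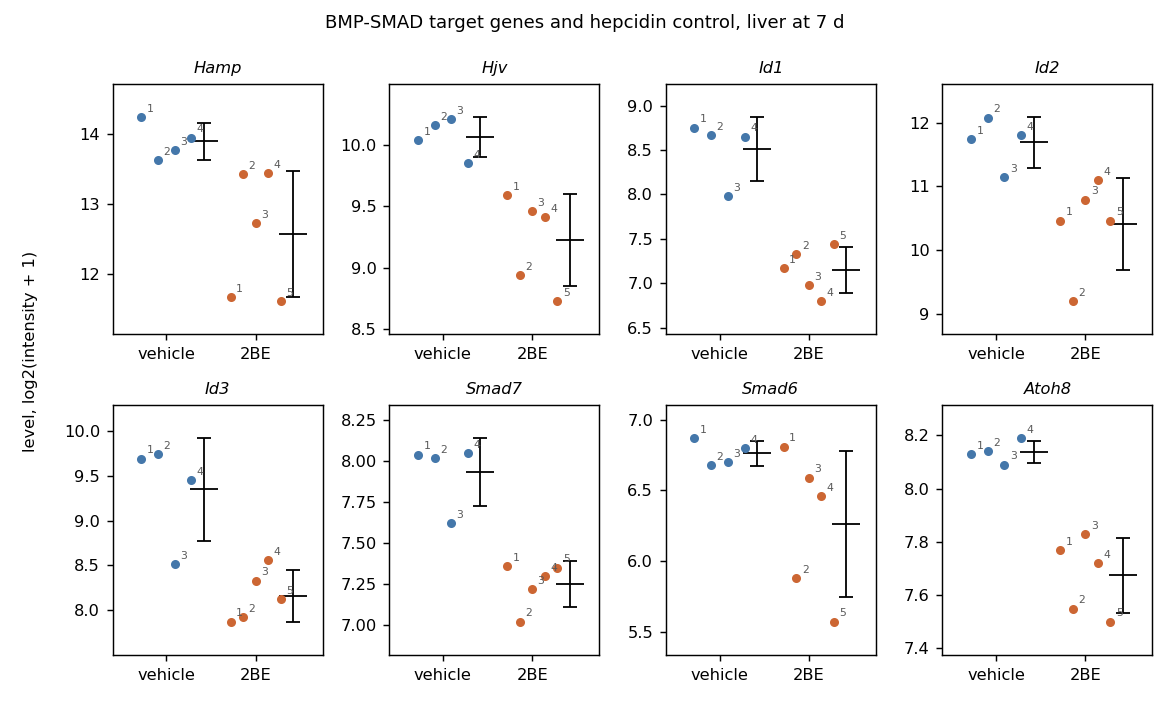
Level, log2(intensity + 1), of 8 genes of BMP signalling in each of the 4 vehicle (blue) and 5 2BE (orange) arrays of the 7 d liver, with replicate numbers and the mean and SD of each arm in black. The 2BE arrays lie below the vehicle arrays except in Id3 and Smad6, where the arms overlap, and Hamp spreads from 11.62 to 13.44 in 2BE. Hamp, Hjv and Smad6 did not pass.

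Apart from these lists, the named genes with the largest rises included Cd24a, a surface glycoprotein of immature blood, biliary and other cells. It was at 4.84, 4.95, 5.03 and 5.05 in vehicle and at 6.66, 6.50, 7.14, 6.56 and 6.13 in 2BE, with arms a unit apart. It rose 3.09-fold (1.63 ± 0.18, adjusted p = 8.0e-04), its other probe sets were at 1.67 ± 0.20 and 0.69 ± 0.17, and its call held with any array left out. Slc25a51, the mitochondrial importer of NAD, rose 2.64-fold (1.40 ± 0.21, adjusted p = 0.00618). Nnmt, which methylates nicotinamide, rose 3.15-fold (1.66 ± 0.34, adjusted p = 0.0291). Nrg4, a growth factor of the EGF family, rose 3.11-fold (1.64 ± 0.28, adjusted p = 0.0121), and Gadd45g, a growth arrest gene, 3.93-fold (1.97 ± 0.43, adjusted p = 0.0459). Of 33 cell cycle genes 1 rose, against 0.506% of all genes. It was the replication helicase subunit Mcm6 (0.62 ± 0.13, adjusted p = 0.0401), and the proliferation marker Mki67 was at 0.34 ± 0.14 (adjusted p = 0.360). At an unadjusted p under 0.05 in limma, 8 of the 33 were higher and 0 lower, against 6.09% and 5.26% of all genes. The list's median was 0.09, and its mean level was 5.62 to 5.69 in vehicle and 5.73 to 5.87 in 2BE. Below the lower quartile of the probe sets were 5 members.

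Among the genes that fell, Plekhf1, a phosphoinositide-binding protein of endosomes and lysosomes, was at 9.43 to 9.70 in vehicle and 7.90 to 8.91 in 2BE. It fell 2.07-fold (-1.05 ± 0.16, adjusted p = 0.00626), and with any array left out it passed. Avpr1a, the vasopressin receptor of hepatocytes, fell 1.78-fold (-0.83 ± 0.18, adjusted p = 0.0382), and Pcdh1, a protocadherin, 1.70-fold (-0.76 ± 0.17, adjusted p = 0.0456). Fam13a fell 1.83-fold (-0.87 ± 0.17, adjusted p = 0.0271) and Hectd2os, an opposite-strand transcript, 2.29-fold (-1.20 ± 0.24, adjusted p = 0.0290). Osgin1, a gene induced by oxidative stress, fell 2.48-fold (-1.31 ± 0.28, adjusted p = 0.0440). It was the 1 of 22 measured Nrf2 antioxidant genes to change, where 0.748% of all genes changed. Of 28 cytochrome P450 and conjugation genes, 21 interferon response genes and 11 alcohol and aldehyde oxidation genes, 0 passed in limma after adjustment. At an unadjusted p under 0.05 there were 2, 5 and 1, against 11.4% of all genes. Calls held with every single array left out for Slc25a51 and Plekhf1, and were lost for Nrg4 without vehicle array 2 (adjusted p = 0.0563), for Nnmt without vehicle arrays 2, 3 and 4 and 2BE arrays 2, 4 and 5 (0.0705 to 0.115), and at an adjusted p of up to 0.168 for the other genes of this and the previous paragraph, each without 6 or 7 of the arrays.

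The 7 d liver was set against the 4 h liver by the difference of the 2 differences, since levels of the 2 times may have been normalized separately. That difference passed for 49 genes (0.269%). At 4 h 821 genes were called (4.51%), and 51 of these were among the 136 of 7 d, 48 in the same direction. Hmox1 was at 3.24 ± 0.21 at 4 h and 0.64 ± 0.19 at 7 d, a change of -2.60 ± 0.28 (adjusted p = 7.0e-04). Among 15 BMP targets 3 passed for this change: Id1, Smad7 and Atoh8. Id1 rose at 4 h (1.00 ± 0.27, adjusted p = 0.0471) and fell at 7 d, a change of -2.37 ± 0.36 (adjusted p = 0.0189), and Smad7 rose at 4 h (0.54 ± 0.15, adjusted p = 0.0494) and fell at 7 d, a change of -1.21 ± 0.20 (adjusted p = 0.0228). Atoh8, at 0.30 ± 0.11 at 4 h, changed by -0.77 ± 0.14 (adjusted p = 0.0338). Id2, at -0.40 ± 0.32 at 4 h, and Id3, at 0.24 ± 0.26, did not pass for the change (adjusted p = 0.553 and 0.118). For Hamp the change was -1.63 ± 0.47 and did not pass (adjusted p = 0.208).

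Ppp1r3b rose at 4 h (0.98 ± 0.18, adjusted p = 0.00462) and fell at 7 d, a change of -1.84 ± 0.23 (adjusted p = 0.00429). Ppp1r3g was at 1.04 ± 0.38 at 4 h, and its change of 2.34 ± 0.51 did not pass (adjusted p = 0.0800). Arntl, at 1.19 ± 0.36 at 4 h (adjusted p = 0.0707), changed by -2.79 ± 0.47 (adjusted p = 0.0268). Per3 changed by 1.81 ± 0.35 (adjusted p = 0.0415). Of 33 macrophage genes 2 passed for the change, Fcgr3 and Lyz2, against 0.269% of all genes, and Marco, at 1.59 ± 0.65, did not (adjusted p = 0.426). Fcgr3 fell at 4 h (-0.70 ± 0.18, adjusted p = 0.0404) and changed by 1.34 ± 0.25 (adjusted p = 0.0338), and Lyz2, at -0.32 ± 0.12 at 4 h, changed by 0.87 ± 0.16 (adjusted p = 0.0338). Slc25a37, at -0.27 ± 0.12 at 4 h, changed by 0.85 ± 0.16 (adjusted p = 0.0338). The count of 49 was 22, 21, 10 and 6 without vehicle arrays 1 to 4 of 7 d in turn, 8 without 2BE array 3 and 4 without 2BE array 4.

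**Figure D5:**
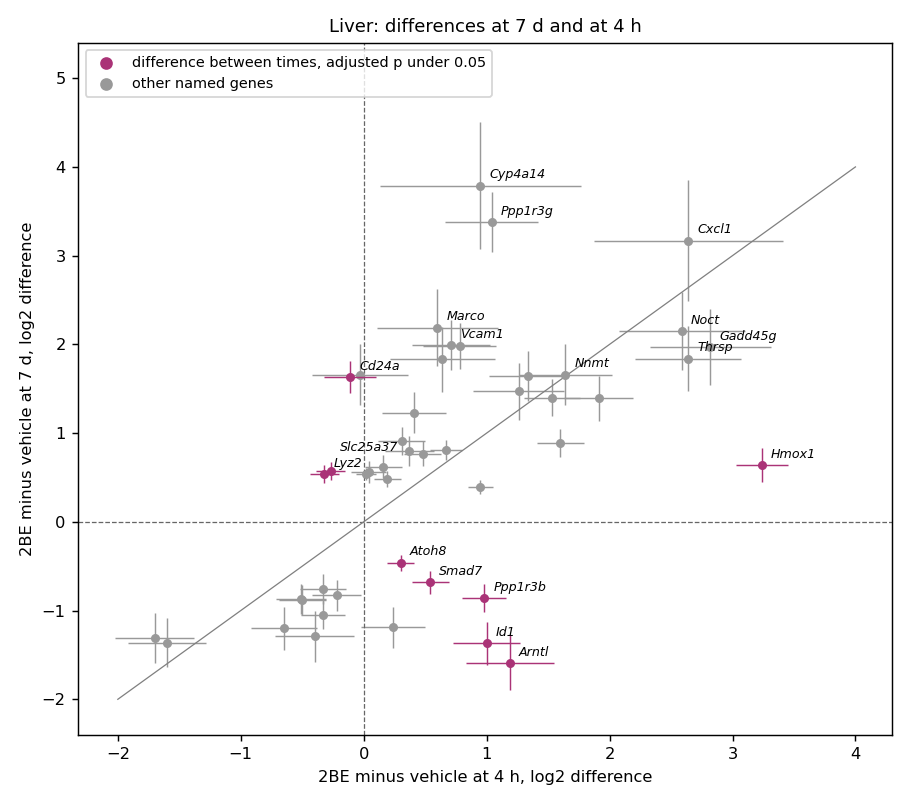
Difference, 2BE minus vehicle on the log2 scale, of each named gene in the liver at 4 h (x axis, 4 2BE and 3 vehicle arrays) and at 7 d (y axis, 5 and 4 arrays), with SE bars and the line of equal differences. Coloured genes differed between the times at an adjusted p under 0.05, such as Hmox1 at 3.24 and 0.64 and Arntl at 1.19 and -1.59. The 45 named genes that passed at 7 d and Hmox1 are plotted.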

How the data were processed

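The 9 liver arrays at 7 d were analysed with the 7 liver arrays at 4 h. The authors deposited 1 table of intensity per probe set, on a linear scale, made with RMA per the submitters' processing notes (version not given in the sources used here), which corrects background, normalizes arrays by quantiles and summarises probes. Of 45101 probe sets, 64 controls were left out; the platform annotation gave 1 symbol for 34945, several for 932 and none for 9160, and only the first were used. Where several probe sets named a gene, the brightest on average over the 44 arrays stood for it, which left 18193 genes. The deposited intensities were taken as log2(intensity + 1), and limma 3.58.1 (R 4.3.3) fitted 4 liver groups with lmFit and eBayes, two-sided, with Benjamini-Hochberg adjustment. The fit was tested on simulated data. The number of arrays limits the precision. Medians of the 7 d liver arrays were 50.1 to 52.3.

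The members and the 24 gene lists and 13 marker lists were chosen with earlier results of these data known. Named genes were up to 12 rises and 12 falls by size among called genes with arms apart and a higher arm above the median probe set (clone-like symbols left out), called list members and a set that includes Hmox1, Hamp, Bmp6 and Tfrc, 60 genes in all, with other members of the 6 groups of lists as examples. Alternatives were the 7 d arrays alone, a replicate block, pseudocounts, a filter on low values, further quantile normalization, eBayes options, array weights, other choices of probe set and each array left out. Leaving out vehicle array 1 and 2BE array 1 together was chosen after seeing the data.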

Additional observations from a re-analysis of the deposited data

Results flagged for a closer look

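In 9 of 120 groups of arrays of a named gene, 1 array stood apart from the rest by the gap it left, where chance gives about 1 in 20. Cyp4a14 was at 5.87 in vehicle array 4 and at 9.08 to 9.72 in the other vehicle arrays. Vehicle array 3 was low in Id1, at 7.98 against 8.65 to 8.75, and in Smad7, at 7.62 against 8.02 to 8.05. Vehicle array 2 was low in Tat, at 12.58 against 13.04 to 13.11, and in Nrg4, at 4.98 against 5.31 to 5.34. Avpr1a was at 9.03 in vehicle array 1 and at 9.31 to 9.32 in the others. 2BE array 2 was low in Osgin1, at 8.78 against 9.99 to 10.46, and high in Tfrc, at 8.77 against 8.15 to 8.25. Pck1 was at 12.72 in 2BE array 1 and at 13.32 to 13.56 in the other 2BE arrays.

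The response to 2BE differed between 7 d and 4 h for 9 of the 60 genes named by size, call or the set list, by limma's test of the difference of the differences with Benjamini-Hochberg adjustment. It was lower at 7 d for Arntl (-2.79 ± 0.47 SE), Hmox1 (-2.60 ± 0.28), Id1 (-2.37 ± 0.36), Ppp1r3b (-1.84 ± 0.23), Smad7 (-1.21 ± 0.20) and Atoh8 (-0.77 ± 0.14). It was higher at 7 d for Cd24a (1.74 ± 0.28), Lyz2 (0.87 ± 0.16) and Slc25a37 (0.85 ± 0.16). Of the further list members given as examples, Fcgr3 (1.34 ± 0.25) and Per3 (1.81 ± 0.35) also passed.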

How the results depend on the processing

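Of the 45 named genes that passed, 0 changed sign under any alternative run. Tfrc, at 0.02 and not called, was at -0.09 to 0.11 with 1 array left out. The 136 calls became 244 (175 higher, 69 lower) with the 7 d arrays alone and 406 (272 higher, 134 lower) with array weights. Further quantile normalization gave 70 lower calls, and its share of higher calls was 58.3% against 67.6%. With 1 array left out the counts were 36 to 250 in all, 26 to 153 higher, 10 to 97 lower, and 4 to 49 for the difference between the times.

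With 1 array left out, called members were 2 to 5 of the macrophage genes (6 in the reported fit), 1 to 7 lipid (6), 2 to 6 glycogen and glucose (6), 1 to 12 clock (5), 0 to 5 iron and haem (1) and 0 to 5 BMP (5). The 7 d arrays alone called 18 macrophage, 11 lipid, 3 clock and 5 iron and haem genes, with Cd163 in both the macrophage and the iron and haem counts. Array weights called 18, 13, 11 and 8 of these. The eBayes trend and robust options called 3 macrophage genes and 1 clock gene, the mean of probe sets 3 macrophage genes, a pseudocount of 16 3 clock genes, and quantile normalization 2 iron and haem genes. Without vehicle array 1 and 2BE array 1 there were 177 calls in all, 2 macrophage, 13 clock, 2 iron and haem and 1 BMP. The cause of these shifts was not tested.

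Replicate numbers recur in both arms, but the deviations of same-numbered arrays correlated at -0.265 to 0.094, so they were not taken to pair the arrays. The replicate block, fitted on the 7 d arrays, called 143 genes, 65 of them shared with the 136, with 15 macrophage, 3 glycogen and glucose, 1 clock, 4 iron and haem and 3 BMP members. Of the 45 named genes that passed, 45 did so without a pseudocount, 36 with the 7 d arrays alone and 23 under the block. Under the low-value filter 44 passed and 0 lost the call, and the remaining gene was filtered out before testing.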
